A study of Homo sapiens with 60 samples.

Results

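Metallothioneins are small cysteine-rich proteins that hold zinc and copper ions, and SLC30A1 (also called ZnT1) carries zinc out of the cell across the plasma membrane. The 9 genes described here are the metallothioneins MT2A, MT1X, MT1E, MT1F, MT1A, MT1M and MT1G, the exporter SLC30A1, and MTF1, the zinc-sensing transcription factor. They were chosen by symbol, for their roles, from the 60675 genes of one table of expected counts, and all 9 symbols matched an Ensembl identifier in it. RNA was sequenced from SW1783, an established human astrocytoma cell line, in 60 libraries that form 20 groups of 3, each after 24 h of treatment. All sample titles carry the labels BatchA and second sequencing. The treatments were wortmannin at 10 µM, an inhibitor of phosphoinositide 3-kinases used as a positive control, and water extracts of 6 medicinal plants at 3 doses each. Fresh ginger (Zingiberis Rhizoma Recens), dried ginger (Zingiberis Rhizoma), Pinellia (Pinelliae Tuber) and jujube (Zizyphi Fructus) were given at 20, 100 and 500 µg/mL. Scutellaria (Scutellariae Radix) was given at 16.4, 82 and 410 µg/mL, and Coptis (Coptidis Rhizoma) at 0.8, 4 and 20 µg/mL. The 3 doses are called low, medium and high below. Per the series' design text, an extract with an IC20 under 500 µg/mL was given at its IC20 and at dilutions of it, which describes Scutellaria and Coptis. The vehicle was DMSO, at 0.1% per the sample labels and at 2% per the design text. All groups are the same cell line, and whether the 3 libraries of a group came from separate cultures is not stated, so p-values measure the spread between these libraries. The sample codes place the vehicle, wortmannin, the gingers, Pinellia with Scutellaria, and Coptis with jujube in separate sets, so a difference between an extract and the vehicle cannot be told apart from a difference between sets. The doses of one extract share a set.

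Metallothionein genes are switched on when free zinc rises: zinc binds MTF1, and MTF1 then binds short metal response elements in their promoters. SLC30A1 is a target of the same factor, so storage and export are commonly raised together. Glucocorticoids and oxidative stress also raise metallothionein transcripts, and in brain these proteins are known above all from astrocytes. In GENCODE release 29 (GRCh38), the 7 metallothioneins lie in one cluster on chromosome 16, from MT2A (56608199 to 56609497, plus strand) to MT1X (56682424 to 56684196, plus strand). SLC30A1 (211571568 to 211578742) and MTF1 (37809567 to 37859620) are both on the minus strand of chromosome 1.

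The RefSeq promoter table (GRCh38.p14) holds 4 of the 9 members, and the 250 bases upstream of the start are shown for the metallothioneins in it, MT2A and MT1X, and for the exporter, because their levels are compared below. They are written 5′ to 3′ on the gene's strand, and capitals mark the metal response element core, searched as TGCACNC or TGCGCNC on both strands. MT2A is chr16:56608334-56608583, plus strand. MT1X is chr16:56682220-56682469, plus strand. SLC30A1 is chr1:211579162-211579411, minus strand.
MT2A: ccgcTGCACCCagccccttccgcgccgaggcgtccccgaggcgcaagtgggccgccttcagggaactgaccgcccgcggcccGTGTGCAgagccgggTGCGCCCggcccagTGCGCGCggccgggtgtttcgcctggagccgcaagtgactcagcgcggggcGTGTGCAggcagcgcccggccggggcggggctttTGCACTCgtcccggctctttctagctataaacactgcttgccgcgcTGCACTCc
MT1X: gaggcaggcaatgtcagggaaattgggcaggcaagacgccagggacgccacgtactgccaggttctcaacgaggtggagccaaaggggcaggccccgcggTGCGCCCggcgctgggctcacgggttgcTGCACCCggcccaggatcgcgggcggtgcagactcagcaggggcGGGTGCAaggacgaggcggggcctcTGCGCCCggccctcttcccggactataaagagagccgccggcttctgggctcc
SLC30A1: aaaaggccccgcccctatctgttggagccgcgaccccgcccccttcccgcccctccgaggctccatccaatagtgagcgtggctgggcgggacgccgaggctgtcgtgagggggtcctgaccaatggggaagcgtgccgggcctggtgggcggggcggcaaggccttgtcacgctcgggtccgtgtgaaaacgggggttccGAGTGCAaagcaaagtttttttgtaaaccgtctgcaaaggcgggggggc
MT2A has 7 matches, MT1X 4 and SLC30A1 1, and the same window of MTF1 has 0. Of 35116 RefSeq promoters, 24.8% have at least 1 match, 0.37% at least 4 and 0.0313% at least 7. The antioxidant response element core, searched as TGACNNNGC on both strands, has 1 match each in MT2A, MT1X and SLC30A1 and 0 in MTF1, against at least 1 in 10.9% of all promoters. No match of one motif overlaps a match of the other in these windows. A match describes the letters and is not evidence of binding. The windows end at RefSeq starts, which differ from the GENCODE gene ends given above, and the MT2A window lies inside its GENCODE gene. Match counts depend on the start used.

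Library totals ran from 20.2 M to 32.8 M counts, with a median of 25.4 M, so 3 counts, taken as the floor, are worth 0.0915 to 0.149 CPM, where CPM is a count relative to each M counts of the library (M is mega). Levels are CPM scaled by TMM factors, which correct for a few genes taking a large share of a library. These factors were 0.80 to 0.83 in the 3 libraries of high-dose Coptis and 0.92 to 0.93 in those of medium-dose Coptis, against 1.01 to 1.02 in the vehicle, and between 0.997 and 1.04 in all other groups. Without them the median log2 fold change of all genes was -0.35 in high-dose Coptis and -0.13 in medium-dose Coptis, so small changes under Coptis depend on the scaling. Of the astrocyte markers, GFAP averaged 0.0886 CPM, S100B 0.0880 CPM, ALDH1L1 0.0414 CPM and AQP4 0 CPM in the vehicle, all under the floor, while GJA1 averaged 244.7 CPM and SLC1A3 33.4 CPM. VIM averaged 4236 CPM and CD44 2781 CPM. The libraries are bulk RNA, in which a change in every cell and a change in the share of cells that express a gene cannot be told apart.

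MT2A dominated the metallothionein transcripts in every library. It held 85.6% to 94.4% of the counts of the 21 metallothionein genes and pseudogenes in the table. In the vehicle it averaged 206.3 ± 13.5 CPM (SD, n = 3), against 14.5 ± 1.58 CPM for MT1E, 10.96 ± 1.10 CPM for MT1X and 0.483 ± 0.184 CPM for MT1F. Per kilobase of the principal transcript, MT2A averaged 263 ± 17.2 CPM in the vehicle, MT1X 24.4 ± 2.44, MT1E 20.7 ± 2.24, SLC30A1 18.6 ± 0.157, MTF1 5.09 ± 0.282 and MT1F 0.699 ± 0.267 (SD, n = 3). On that length-corrected level MT1X stood above MT1E, whereas MT1E had more counts. The family shares much of its sequence, so how reads were divided among its members is uncertain; 1 of 60 MT2A values was not a whole number and all values of the other 8 members were.

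MT1A, MT1M and MT1G were too low to test. MT1A had 1 to 10 counts per library and exceeded 3 counts in 40 of 60 libraries. MT1M had 0 to 7 counts and exceeded 3 in 17 libraries, and MT1G had 0 to 5 counts and exceeded 3 in 6. No member was at or under 3 counts in all 60 libraries. Summed over 3 libraries, MT1M had 0 counts in high-dose jujube, against 9 in the vehicle, and its largest sum was 15, with wortmannin. MT1G was at 0 in all 3 libraries of medium-dose dried ginger, against 4 counts in the vehicle, and its largest sum was 10, in high-dose Scutellaria. MT1A sums ran from 7 to 24 counts, with 13 in the vehicle. Among the 14 other metallothionein rows, the pseudogene MT1L had 20 to 67 counts per library, MT3 had at most 3, and 9 rows had none. The remaining 6 members passed the filter on low values, as did 17569 genes in all.

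**Figure D1:**
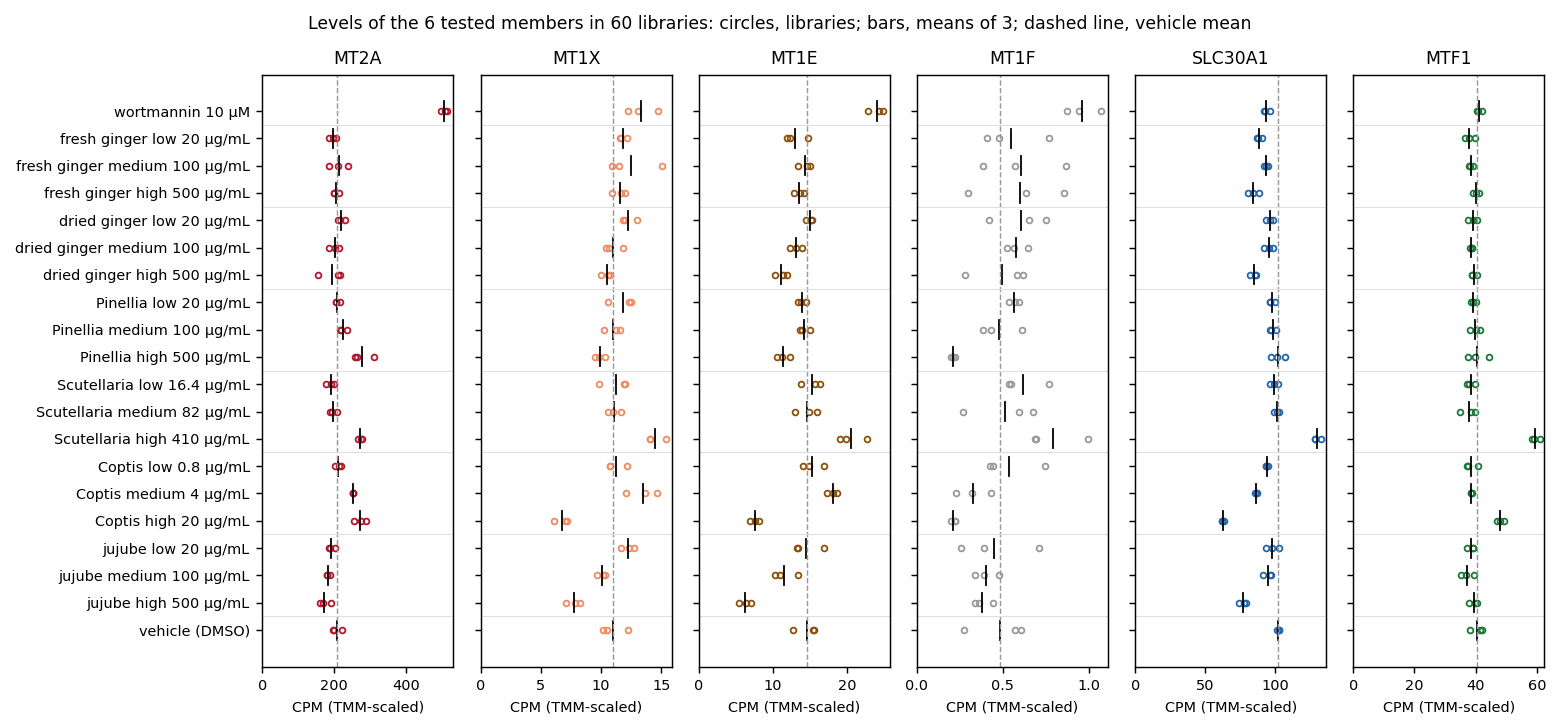
Levels of the 6 tested members in TMM-scaled CPM (x axes, each starting at 0) in 20 groups (rows); circles are libraries, black bars means of 3, and the dashed line the vehicle mean. MT2A stands apart with wortmannin at 495 to 513 CPM, MT1E and MT1X are lowest in high-dose Coptis and high-dose jujube, and SLC30A1 and MTF1 are highest in high-dose Scutellaria.

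Each treatment was first compared with the vehicle. A gene was called when its adjusted p in edgeR's quasi-likelihood test, with Benjamini-Hochberg adjustment over 17569 genes, was under 0.05, and shares of all genes below are shares of these tested genes. With wortmannin 4 of the 6 tested members were called higher and 1 lower, where 36.5% of all genes were called, 17.3% higher and 19.2% lower. High-dose Scutellaria had 5 members higher and 0 lower, where 58.8% of all genes were called and 30.3% were called higher. High-dose Coptis had 2 higher and 4 lower, against 37.2% of all genes higher and 37.9% lower, 75.2% together. High-dose jujube had 0 higher and 4 lower, where 17.3% of all genes were called and 9.1% were called lower. High-dose Pinellia had 1 higher and 1 lower, against 9.3% of all genes higher and 8.73% lower, 18% together. The gingers had fewer: 2 lower with high-dose dried ginger (17% of all genes called, 9.2% lower) and 1 lower with high-dose fresh ginger (19.3% called, 10.2% lower). At the medium doses, Coptis had 3 higher and 1 lower, against 21% of all genes higher and 20.2% lower, 41.2% together, and fresh ginger had 1 lower (1.5% called, 0.655% lower). None was called at the medium dose of dried ginger (0.7% of all genes), Pinellia (1.41%), Scutellaria (8.45%) or jujube (0.364%). At the low doses, fresh ginger had 1 lower (7.94% called, 4.38% lower), and none was called for dried ginger (0.0512%), Pinellia (0.142%), Scutellaria (2.72%), Coptis (0.683%) or jujube (0.0114%). With high-dose Scutellaria and Coptis most of the tested genes were called. The 19 comparisons share the 3 vehicle libraries, so they are not independent.

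**Figure D2:**
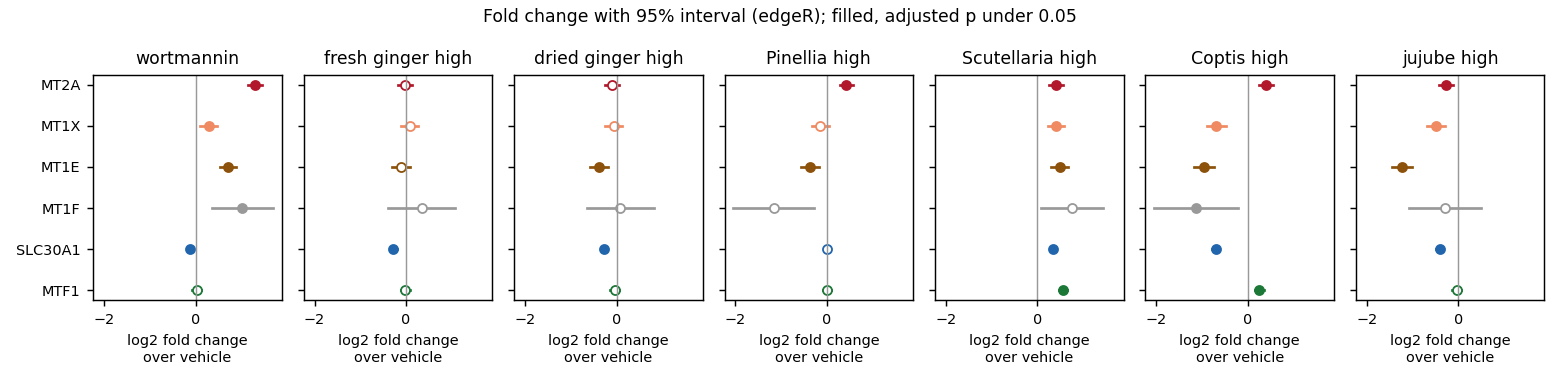
Log2 fold change over the vehicle (x axis) of the 6 tested members (rows) with wortmannin and with each extract at its high dose; points are edgeR estimates, lines 95% intervals, and filled points have an adjusted p under 0.05. All metallothioneins lie right of 0 with wortmannin and with Scutellaria, while with Coptis MT2A lies right and MT1X, MT1E and MT1F lie left of it. By library totals the rises of MT2A and MTF1 with Coptis do not hold.

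MT2A, the most abundant metallothionein, rose most with wortmannin. Its level was 495, 506 and 513 CPM in the wortmannin libraries, against 197, 200.4 and 222 CPM in the vehicle libraries. All 3 treated libraries stood far above every vehicle library, and the difference was 2.45-fold (log2 1.29 ± 0.07 SE, adjusted p = 2.1e-20). Pinellia at 500 µg/mL gave 309, 263 and 259 CPM, a log2 difference of 0.43 ± 0.07 (SE, adjusted p = 1.8e-05). Scutellaria at 410 µg/mL gave 274, 277 and 265 CPM, a log2 difference of 0.40 ± 0.07 (SE, adjusted p = 6.3e-06). Both extracts lay above the vehicle in all 3 libraries and did not differ from each other beyond their spread.

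By TMM-scaled CPM, MT2A at the high doses was higher with Coptis and lower with jujube than in the vehicle. MT2A was at 253, 252 and 251 CPM with medium-dose Coptis and at 255, 289 and 273 CPM with high-dose Coptis, all above the 3 vehicle libraries. The log2 fold changes were 0.29 ± 0.07 (SE, adjusted p = 0.0013) at the medium dose and 0.40 ± 0.08 (SE, adjusted p = 4.3e-06) at the high dose. By library totals, without TMM factors, they were 0.15 (adjusted p = 0.087) and 0.08 (adjusted p = 0.29), so neither call held on that scale. High-dose jujube gave 168, 159.5 and 189.9 CPM, all below the vehicle libraries, and MT2A fell by 0.26 ± 0.08 on the log2 scale (SE, adjusted p = 0.012). That call was lost without jujube replicate 1 (adjusted p = 0.053), without jujube replicate 2 (adjusted p = 0.099) and without vehicle replicate 3 (adjusted p = 0.098). Both gingers left MT2A uncalled at all doses, and at the high dose the 95% interval of its log2 fold change was -0.17 to 0.13 with fresh ginger and -0.25 to 0.06 with dried ginger.

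MT1E, a metal-binding isoform with about the same role as MT2A, had the widest range of group means among the well-counted members (3.83-fold). It was at 24.7, 24.3 and 22.8 CPM with wortmannin, against 12.7, 15.4 and 15.55 CPM in the vehicle, a log2 difference of 0.71 ± 0.09 (SE, adjusted p = 2.2e-09). High-dose Scutellaria gave 19.8, 22.7 and 18.98 CPM, a log2 difference of 0.49 ± 0.09 (SE, adjusted p = 4.7e-06). In both groups every library exceeded every vehicle library. High-dose jujube gave 5.38, 6.33 and 7.04 CPM, and MT1E fell by 1.23 ± 0.11 on the log2 scale (SE, adjusted p = 1.5e-12), which is 2.35-fold lower. With high-dose Coptis it was at 7.56, 8.11 and 6.89 CPM and fell by 0.96 ± 0.11 (SE, adjusted p = 3.2e-11). These 2 groups were the lowest of the 20 and overlapped each other. Smaller falls were called with high-dose dried ginger (-0.39 ± 0.10, adjusted p = 0.0031) and high-dose Pinellia (-0.36 ± 0.10, adjusted p = 0.0057), each below all vehicle libraries.

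MT1X, the other well-counted MT1 isoform, at 139 to 425 counts per library, followed MT1E in part. With high-dose Scutellaria it was at 15.4, 14.0 and 14.1 CPM, against 10.5, 10.2 and 12.2 CPM in the vehicle, a log2 difference of 0.41 ± 0.09 (SE, adjusted p = 6e-05). High-dose Coptis gave 6.11, 7.18 and 7.02 CPM, and MT1X fell by 0.69 ± 0.10 (SE, adjusted p = 3.5e-08). High-dose jujube gave 8.27, 7.12 and 7.80 CPM, and MT1X fell by 0.49 ± 0.10 (SE, adjusted p = 0.00015). The libraries of these 3 extracts did not overlap the vehicle. With wortmannin it was at 13.1, 14.7 and 12.2 CPM, 0.28 ± 0.09 higher (SE, adjusted p = 0.0091), and that call was lost without wortmannin replicate 2 (adjusted p = 0.099) and without vehicle replicate 2 (adjusted p = 0.078). High-dose Pinellia left MT1X uncalled, with a log2 difference of -0.14 ± 0.09 (SE, adjusted p = 0.32).

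At the medium dose of Coptis the MT1 isoforms lay on the other side of the vehicle from the high dose. MT1E was at 18.1, 17.3 and 18.7 CPM, 0.31 ± 0.09 above the vehicle (SE, adjusted p = 0.0049), and MT1X at 12.1, 14.7 and 13.6 CPM, 0.30 ± 0.09 above it (SE, adjusted p = 0.0052). The lowest MT1X library lay within the vehicle's range. By library totals these differences were 0.17 for MT1E (adjusted p = 0.13) and 0.16 for MT1X (adjusted p = 0.14), so the medium-dose calls did not hold on that scale. The MT1E call was also lost without vehicle replicate 1 (adjusted p = 0.06). The falls at the high dose were larger by library totals: MT1E averaged 6.11 ± 0.397 CPM there, against 14.7 ± 1.61 CPM in the vehicle, and MT1X 5.51 ± 0.453 CPM, against 11.1 ± 1.09 CPM (SD, n = 3 each).

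Ratios of 2 genes within a library need no scaling, and they show that MT2A and the MT1 isoforms parted under several treatments. The log2 ratio of MT1E to MT2A counts was -5.08, -5.15 and -5.31 with high-dose Coptis, against -3.95, -3.70 and -3.83 in the vehicle, a difference of -1.35. The difference was -0.96 with high-dose jujube, -0.78 with high-dose Pinellia and -0.57 with wortmannin, each with all 3 libraries below the vehicle. Medium-dose Pinellia also had no overlap in that ratio, at -0.145. The ratio of MT1X to MT2A differed by -1.10 with high-dose Coptis, -1.01 with wortmannin, -0.57 with high-dose Pinellia and -0.24 with high-dose jujube, again with no overlap. It was above all vehicle libraries with low-dose jujube, at 0.27, and with low-dose fresh ginger, at 0.18, where neither gene was called. The jujube value of -0.24 is thus about as large as shifts seen at low doses. With high-dose Scutellaria both ratios overlapped the vehicle, at differences of 0.09 for MT1E and 0.00 for MT1X. The MT2A share of metallothionein CPM was accordingly 94.2% with high-dose Coptis, 92.5% with wortmannin, 92.3% with high-dose Pinellia, 91.7% with high-dose jujube and 87.9% with high-dose Scutellaria, against 88.2% in the vehicle. The 2 MT1 isoforms also separated from each other: the log2 ratio of MT1E to MT1X averaged 0.85 ± 0.11 with wortmannin and -0.31 ± 0.27 with high-dose jujube, against 0.41 ± 0.17 in the vehicle (SD, n = 3 each), with no overlap. Smaller differences without overlap were -0.32 with high-dose dried ginger, -0.28 with low-dose fresh ginger, -0.21 with high-dose Pinellia and -0.18 with high-dose fresh ginger. These ratios are descriptions without a test across genes.

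**Figure D3:**
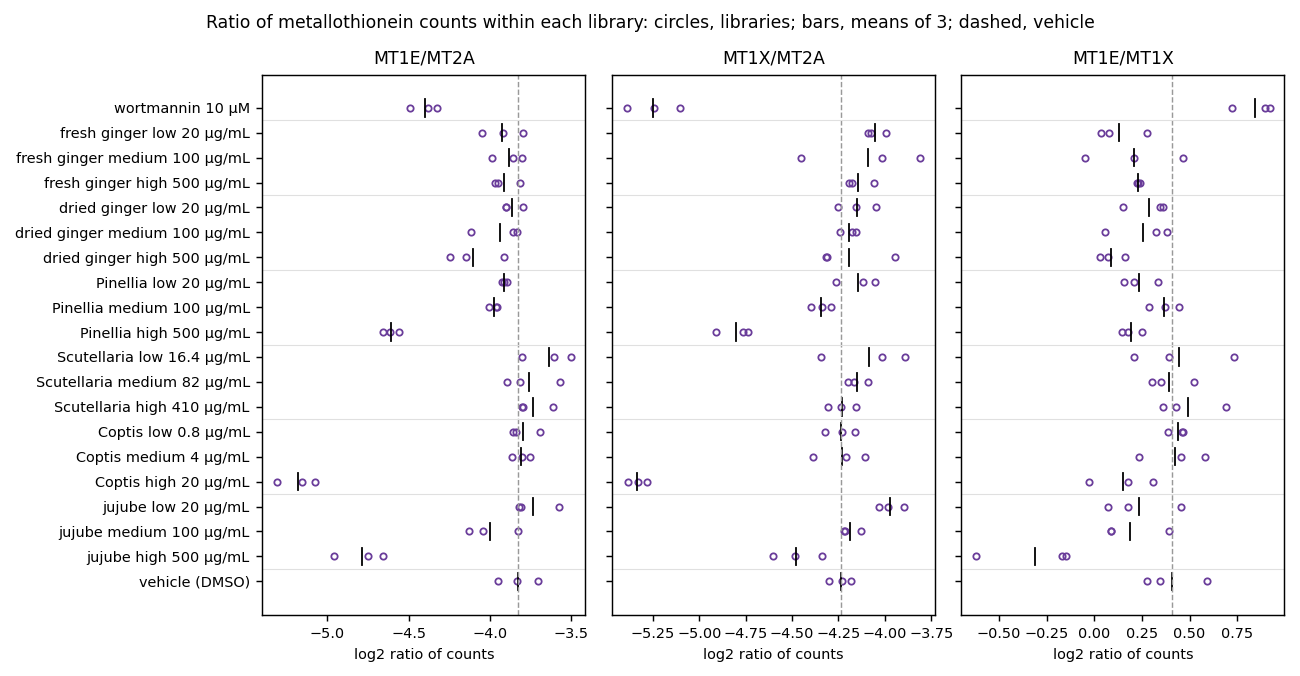
Log2 ratio of metallothionein counts within each library (x axes) in 20 groups (rows); circles are libraries, black bars means of 3, and the dashed line the vehicle mean. MT1E over MT2A is lowest in high-dose Coptis at -5.31 to -5.08, and MT1E over MT1X is highest with wortmannin and lowest in high-dose jujube.

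MT1F, a low MT1 isoform, had 4 to 30 counts per library, so its estimates are wide. With wortmannin it had 22, 22 and 29 counts, against 13, 7 and 12 in the vehicle, a log2 difference of 1.02 ± 0.33 (SE, adjusted p = 0.013). With high-dose Coptis it had 5, 4 and 5 counts and fell by 1.13 ± 0.46 (SE, adjusted p = 0.023). The wortmannin call was lost without vehicle replicate 2 (adjusted p = 0.14) and without wortmannin replicate 3 (adjusted p = 0.053). The Coptis call was lost without Coptis replicate 2 (adjusted p = 0.057) and without vehicle replicate 1 (adjusted p = 0.11) or 3 (adjusted p = 0.081). High-dose Pinellia gave 6, 5 and 5 counts (log2 fold change -1.16 ± 0.44 SE, adjusted p = 0.058) and high-dose Scutellaria 18, 18 and 30 counts (0.75 ± 0.34 SE, adjusted p = 0.054). Both stood apart from the vehicle libraries without passing the threshold. The Scutellaria difference passed narrowly with replicate numbers as a block (adjusted p = 0.049), by library totals (adjusted p = 0.048) and in 4 of 6 leave-outs, over which its adjusted p ran from 0.036 to 0.32.

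SLC30A1, the zinc exporter of the plasma membrane, had the smallest spread between replicates, with a median SD of 2.41% of the mean over the 20 groups. High-dose Scutellaria gave 128, 129 and 133 CPM, against 103, 101 and 102 CPM in the vehicle, a log2 difference of 0.35 ± 0.03 (SE, adjusted p = 9.5e-14). It was the one group called higher. High-dose Coptis gave 62.2, 63.3 and 62.2 CPM, and SLC30A1 fell by 0.71 ± 0.04 (SE, adjusted p = 1.2e-24), which is 1.63-fold lower. High-dose jujube gave 77.7, 73.9 and 79.0 CPM, and it fell by 0.41 ± 0.03 (SE, adjusted p = 2.4e-13). Neither of these groups overlapped the vehicle or the other.

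SLC30A1 fell by less with both gingers and with wortmannin. High-dose fresh ginger gave 88.2, 84.2 and 80.3 CPM (-0.28 ± 0.03 SE, adjusted p = 8.2e-09) and high-dose dried ginger 85.4, 81.9 and 86.3 CPM (-0.27 ± 0.03 SE, adjusted p = 1.2e-08). With wortmannin it was at 92.0, 96.0 and 92.4 CPM (-0.13 ± 0.03 SE, adjusted p = 0.0019), while the metallothioneins rose in the same libraries. Medium-dose Coptis (-0.24 ± 0.03 SE, adjusted p = 3.2e-08) and low-dose fresh ginger (-0.21 ± 0.03 SE, adjusted p = 0.00012) were also called. The call for medium-dose fresh ginger (-0.12 ± 0.03 SE, adjusted p = 0.043) was lost when any 1 of its 6 libraries was left out, with adjusted p from 0.06 to 0.21. With high-dose Pinellia SLC30A1 was at 97.0, 107 and 101 CPM, and the 95% interval of its log2 fold change was -0.07 to 0.06. The vehicle mean of 102 CPM was above the mean of 18 of the 19 treated groups, and 14 of them had every library below every vehicle library. Only 8 of the 19 comparisons were called lower, and the vehicle libraries lay close together, at 101 to 103 CPM. How many other genes show such a pattern was not counted. The vehicle is in a code set of its own, so whether these lower levels belong to the treatments or to the set cannot be told apart.

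MTF1, the factor that senses zinc, was called in 2 of the 19 comparisons. High-dose Scutellaria gave 61.2, 58.4 and 59.0 CPM, against 41.5, 38.0 and 42.2 CPM in the vehicle, a log2 difference of 0.56 ± 0.05 (SE, adjusted p = 2.7e-15). High-dose Coptis gave 47.9, 47.1 and 49.2 CPM, 0.25 ± 0.05 higher (SE, adjusted p = 1.1e-05). That second direction turned with the scaling: by library totals MTF1 averaged 39.1 ± 1.51 CPM with high-dose Coptis, against 41.1 ± 2.16 CPM in the vehicle (SD, n = 3 each), a log2 fold change of -0.07 (adjusted p = 0.2). With medium-dose Coptis MTF1 was uncalled by TMM-scaled CPM (-0.07 ± 0.05 SE, adjusted p = 0.26) and called lower by library totals (-0.21, adjusted p = 0.00039). The ratio of SLC30A1 to MTF1 counts, which needs no scaling, averaged 0.38 ± 0.04 on the log2 scale with high-dose Coptis, against 1.33 ± 0.07 in the vehicle (SD, n = 3 each), with no overlap. The other 17 group means lay between 37.1 and 41.1 CPM. In the wortmannin group, where MT2A was 2.45-fold higher than in the vehicle, MTF1 was not called, at a log2 difference of 0.02 ± 0.05 (SE).

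Comparisons between doses of one extract do not use the vehicle and stay within one code set. Between the high and the low dose, Scutellaria had 5 members higher and 0 lower, where 58.1% of all genes were called and 29.2% were called higher. MTF1 differed by 0.63 ± 0.05 (SE, adjusted p = 2.2e-17), MT2A by 0.52 ± 0.07 (SE, adjusted p = 2.8e-08) and SLC30A1 by 0.39 ± 0.03 (SE, adjusted p = 2.3e-15). No member was called between the medium and the low dose of Scutellaria (1.64% of all genes). The same 5 members were called higher between the high and the medium dose (57.3% of all genes called, 28.7% higher), and the medium-dose libraries of each overlapped the low-dose ones.

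Coptis moved members in both steps. Over the whole range, high against low, 2 members were higher and 4 lower (75.8% of all genes called, 36.9% higher and 38.9% lower). The higher ones, MT2A (0.37 ± 0.07 SE, adjusted p = 1.6e-05) and MTF1 (0.32 ± 0.05 SE, adjusted p = 3.8e-08), were not called by library totals, at 0.06 (adjusted p = 0.42) and 0.02 (adjusted p = 0.76). Of the lower ones MT1F (-1.298 ± 0.43 SE, adjusted p = 0.0062) was lost without low-dose replicate 3 (adjusted p = 0.057). At the medium dose against the low one, 3 members were higher and 1 lower (36.4% of all genes called, 18.4% higher and 18% lower): MT2A by 0.26 ± 0.07 (SE, adjusted p = 0.0043), MT1X by 0.26 ± 0.09 (SE, adjusted p = 0.011), MT1E by 0.25 ± 0.09 (SE, adjusted p = 0.021) and SLC30A1 by -0.12 ± 0.03 (SE, adjusted p = 0.0026). By library totals the 3 rises were 0.13 (adjusted p = 0.14), 0.14 (adjusted p = 0.19) and 0.12 (adjusted p = 0.27), and MTF1, at 0.00 ± 0.05 (SE) by TMM-scaled CPM, was called lower (-0.12, adjusted p = 0.036). The MT1X rise was also lost without Coptis medium replicate 2 (adjusted p = 0.09) or low replicate 2 (adjusted p = 0.055), and the MT1E rise without medium replicate 1 or 3 or low replicate 1 or 2 (adjusted p from 0.05 to 0.094). Between the high and the medium dose, MT1E fell by 1.27 ± 0.10 (SE, adjusted p = 5.9e-16), MT1X by 0.99 ± 0.10 (SE, adjusted p = 3.4e-13) and SLC30A1 by 0.46 ± 0.04 (SE, adjusted p = 5.8e-17), while MT2A was not called (0.11 ± 0.07 SE, adjusted p = 0.17). In that step MTF1 was the 1 member called higher, by 0.32 ± 0.05 (SE, adjusted p = 6e-08), and 71.4% of all genes were called, 35% higher and 36.4% lower. SLC30A1 went down at each step, in the means 93.9, 86.2 and 62.6 CPM at 0.8, 4 and 20 µg/mL, while MT1E averaged 15.2, 18.03 and 7.52 CPM.

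With jujube the high dose had 3 members lower than the low dose, where 15.2% of all genes were called and 7.85% were called lower. MT1E averaged 14.5 ± 2.10, 11.5 ± 1.59 and 6.25 ± 0.837 CPM at 20, 100 and 500 µg/mL (SD, n = 3 each). The high dose differed from the low dose by -1.21 ± 0.11 for MT1E (SE, adjusted p = 2.1e-12), -0.65 ± 0.09 for MT1X (SE, adjusted p = 5.8e-07) and -0.35 ± 0.03 for SLC30A1 (SE, adjusted p = 2.8e-11), and MT2A was not called (-0.15 ± 0.08 SE, adjusted p = 0.18). They were lower than at the medium dose as well (8.03% of all genes called, 4.41% lower), a call that MT1X lost without high-dose replicate 2 (adjusted p = 0.069), and none was called between the medium and the low dose (0.0171%).

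In Pinellia the high dose had 1 member higher and 3 lower than the low dose (14.5% of all genes called, 7.65% higher and 6.86% lower). MT2A was 0.41 ± 0.07 higher (SE, adjusted p = 3.1e-05), and MT1F, at 6, 5 and 5 counts against 15, 15 and 17, was 1.43 ± 0.41 lower (SE, adjusted p = 0.012). MT1E (-0.29 ± 0.10 SE, adjusted p = 0.035) and MT1X (-0.25 ± 0.09 SE, adjusted p = 0.044) passed narrowly, and neither passed without Pinellia high-dose replicate 2 or 3 or low-dose replicate 2 or 3 (adjusted p from 0.07 to 0.15 for MT1E and from 0.09 to 0.18 for MT1X). MT1X also failed without high-dose replicate 1 (adjusted p = 0.057). Against the medium dose, the high dose had MT2A higher by 0.31 ± 0.07 (SE, adjusted p = 0.0031) and MT1E lower by 0.32 ± 0.10 (SE, adjusted p = 0.028), where 6.9% of all genes were called, 3.72% higher and 3.19% lower. The MT2A call there was lost without high-dose replicate 1 (adjusted p = 0.085), and the MT1E call without high-dose replicate 2 (adjusted p = 0.078) or 3 (adjusted p = 0.13) or medium-dose replicate 2 (adjusted p = 0.14). None was called between the medium and the low dose (0.364%).

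**Figure D4:**
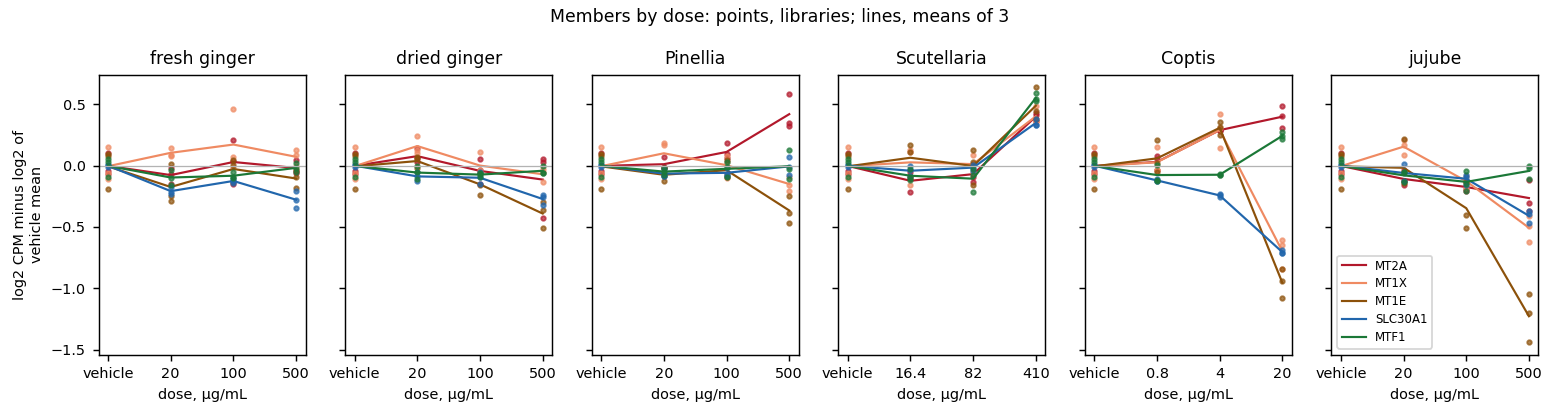
Log2 CPM minus the log2 of the vehicle mean (y axis) for 5 members by dose in µg/mL (x axis), with the vehicle at the left; points are libraries and lines join the means of 3. Scutellaria raises all 5 at its last dose, whereas with Coptis MT1E and MT1X lie above the vehicle at 4 µg/mL and below it at 20 µg/mL; by library totals the rises at 4 µg/mL and those of MT2A and MTF1 at 20 µg/mL do not hold.

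Fresh and dried ginger come from the same plant and were compared at equal doses. None of the 6 tested members was called between dried and fresh ginger at the high (1.42% of all genes called), medium (0.0683%) or low dose (0.279%), and unadjusted p was under 0.05 for MT1E at the high dose, for MT1X at the medium dose and for MT2A, MT1E and SLC30A1 at the low dose. At the high dose MT1E was at 11.8, 11.3 and 10.2 CPM with dried ginger, against 13.6, 12.8 and 14.2 CPM with fresh ginger, a difference of -0.28 ± 0.10 (SE, adjusted p = 0.19). SLC30A1 differed there by 0.00 ± 0.03, with a 95% interval of -0.06 to 0.07. Within dried ginger the high dose had 2 members lower than the low dose (13.2% of all genes called, 7.13% lower), MT1E by 0.42 ± 0.10 (SE, adjusted p = 0.0011) and SLC30A1 by 0.18 ± 0.03 (SE, adjusted p = 4.4e-05). Within fresh ginger 0 members were called between these doses (23.3% of all genes called). With the trend in principal transcript length taken out, SLC30A1 was called lower there (-0.09, adjusted p = 0.035). SLC30A1 was lower at the high than at the medium dose of fresh ginger (-0.15 ± 0.03 SE, adjusted p = 0.0014), where 10.7% of all genes were called and 5.7% were called lower, and of dried ginger (-0.17 ± 0.03 SE, adjusted p = 0.00016), where 8.92% were called and 4.91% were called lower. None was called between the medium and the low dose of fresh (1.06%) or dried ginger (0.182%). The difference of the 2 dose effects, dried minus fresh, was not called for any member, where 0.814% of all genes were; for MT1E it was -0.48 ± 0.13 (SE, adjusted p = 0.065).

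Pairs of extracts within one code set at their high doses differ in amount, so their values stand side by side. Scutellaria at 410 µg/mL and Pinellia at 500 µg/mL had nearly the same MT2A, at 272 ± 6.36 and 277 ± 28.1 CPM. The same pair differed in MT1E, at 20.5 ± 1.94 and 11.3 ± 0.881 CPM, in SLC30A1, at 129.9 ± 2.5 and 102 ± 5.05 CPM, and in MTF1, at 59.5 ± 1.44 and 40.6 ± 3.49 CPM (SD, n = 3 each). Of the 6 tested members 5 were called higher with Scutellaria and 0 lower, where 57.7% of all genes were called and 29.2% were called higher. MT1F differed most, by 1.92 ± 0.39 on few counts (SE, adjusted p = 2.9e-05), and MT1E by 0.85 ± 0.09 (SE, adjusted p = 8.7e-12), while the 95% interval for MT2A was -0.17 to 0.12. Coptis at 20 µg/mL and jujube at 500 µg/mL had low MT1E, at 7.52 ± 0.614 and 6.25 ± 0.837 CPM, and low SLC30A1, at 62.6 ± 0.627 and 76.9 ± 2.7 CPM. Their MT2A levels were 273 ± 16.9 and 172 ± 15.8 CPM, with no overlap. In Coptis against jujube 3 members were called higher and 1 lower, where 76.8% of all genes were called, 37.4% higher and 39.3% lower. MT2A was higher by 0.66 ± 0.08 (SE, adjusted p = 2.6e-11) and SLC30A1 lower by 0.30 ± 0.04 (SE, adjusted p = 1.7e-10). By library totals both calls held, but the MT2A difference was smaller and the SLC30A1 difference larger. On that scale MT2A averaged 222 CPM with Coptis and 178 CPM with jujube, and SLC30A1 50.9 and 79.4 CPM. The calls for MTF1 (0.28 ± 0.05 SE, adjusted p = 5.5e-07) and MT1E (0.28 ± 0.13 SE, adjusted p = 0.043) turned to -0.06 and -0.07 by library totals, where MT1X (-0.54, adjusted p = 9.1e-06) and MT1F (-1.17, adjusted p = 0.019) were called lower. The MT1E call was also lost without Coptis replicate 1 or 2 or jujube replicate 1 or 2 (adjusted p from 0.053 to 0.24).

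Other zinc transporters were described from 2 lists, the SLC30 family, which moves zinc out of the cytosol, and the SLC39 family, which moves zinc into it. With high-dose Scutellaria 4 of the 7 tested SLC30 genes rose and 0 fell, where 58.8% of all genes were called and 30.3% higher, and their median log2 fold change was 0.32, against 0.01 over all genes. SLC30A7, SLC30A5 and SLC30A4, which load zinc into the secretory pathway or vesicles, rose by 0.56 ± 0.04, 0.36 ± 0.03 and 0.47 ± 0.05 (SE, adjusted p = 4.9e-18, 1.5e-15 and 1.6e-11). With high-dose Coptis 2 SLC30 genes rose and 3 fell by TMM-scaled CPM, where 37.2% of all genes rose and 37.9% fell, and 1 rose and 4 fell by library totals. SLC30A6 fell by 0.87 ± 0.05 and SLC30A4 by 0.83 ± 0.06 (SE, adjusted p = 2e-21 and 7.7e-18). SLC30A2, a vesicular zinc transporter, averaged 3.64 CPM with high-dose Coptis, against 0.117 CPM in the vehicle, which lies at the floor. For the other treatments at the high dose, 1 SLC30 gene rose with wortmannin (17.3% of all genes called higher), 1 fell with Pinellia (8.73% lower) and 1 with jujube (9.1% lower), and 0 were called with fresh (19.3% called) or dried ginger (17%).

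SLC39A14, an importer of zinc that also carries iron and manganese, was called in both directions. It rose by 1.26 ± 0.03 with high-dose Coptis (SE, adjusted p = 3.3e-40; 0.95 by library totals), by 0.92 ± 0.03 with Scutellaria (SE, adjusted p = 1.6e-33) and by 0.61 ± 0.03 with Pinellia (SE, adjusted p = 3.8e-24). It fell by 0.37 ± 0.03 with jujube (SE, adjusted p = 7e-14) and by 0.27 ± 0.03 with wortmannin (SE, adjusted p = 9e-11). Its level averaged 505, 399 and 322 CPM in the first 3 groups and 163 and 175 CPM in jujube and wortmannin, against 211 CPM in the vehicle. Of 11 tested SLC39 genes, 6 rose and 3 fell with high-dose Coptis (3 and 5 by library totals), 4 rose and 3 fell with Scutellaria, 3 rose and 0 fell with Pinellia, 2 rose and 0 fell with each ginger, 1 rose and 1 fell with jujube, and 2 rose and 4 fell with wortmannin. Over all genes 75.2% were called with Coptis, 58.8% with Scutellaria, 18% with Pinellia, 19.3% with fresh ginger, 17% with dried ginger, 17.3% with jujube and 36.5% with wortmannin. SLC39A6, an importer of the plasma membrane, rose by 0.47 ± 0.03 with Coptis (SE, adjusted p = 4.8e-19; 0.16 by library totals). SLC39A7, which releases zinc from the endoplasmic reticulum, rose by 0.34 ± 0.03 with Scutellaria (SE, adjusted p = 3.2e-15).

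**Figure D5:**
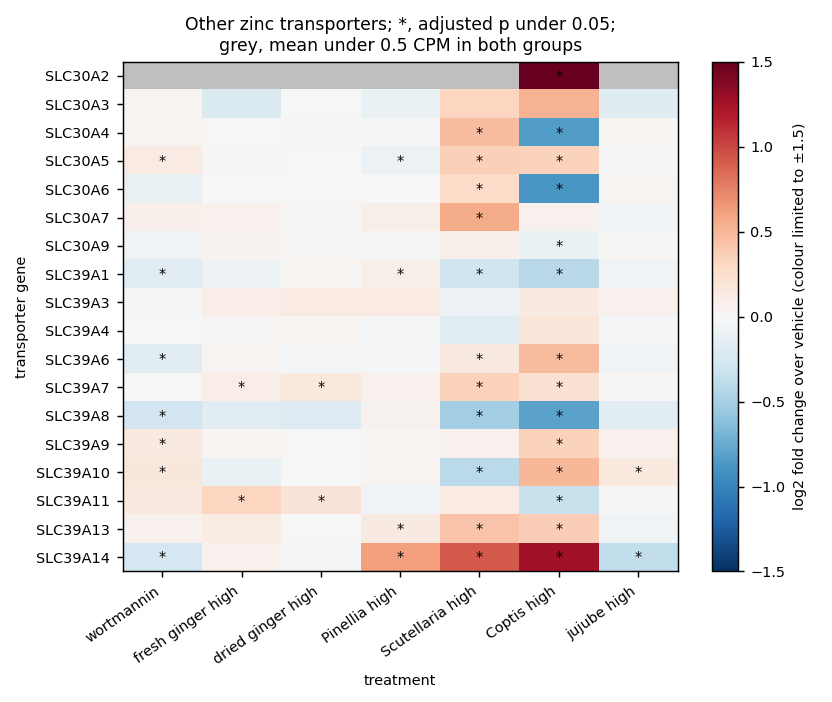
Log2 fold change over the vehicle (colour, limited to ±1.5) of 18 other zinc transporter genes (rows) with wortmannin and the high doses (columns); stars mark an adjusted p under 0.05, and grey cells a mean under 0.5 CPM in both groups. SLC39A14 is raised with Pinellia, Scutellaria and Coptis and lowered with jujube and wortmannin; with Coptis the small rises of SLC30A5, SLC39A9 and SLC39A13 do not pass by library totals, and SLC39A7 is lower there.

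Copper-handling genes, another cargo system that metallothioneins serve, were called in both directions. With high-dose Coptis 6 of 12 rose and 5 fell (5 and 6 by library totals), led by ATP7A, the copper exporter, which fell by 1.5 ± 0.04 (SE, adjusted p = 3.4e-35), and SLC31A1, the copper importer, which rose by 0.54 ± 0.04 (SE, adjusted p = 1.2e-19). With high-dose Scutellaria 4 rose and 4 fell, with SLC31A1 0.56 ± 0.03 higher (SE, adjusted p = 3.8e-20). The count was 2 higher and 4 lower with wortmannin, 1 and 1 with fresh ginger, 0 and 1 with dried ginger, 0 and 0 with Pinellia, and 1 and 0 with jujube. Over all genes 75.2% were called with Coptis, 58.8% with Scutellaria, 36.5% with wortmannin, and 17% to 19.3% with the other high doses.

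Lists of genes that respond to other known inducers of metallothioneins moved in the same libraries, and their part in the metallothionein levels was not tested. The 10 genes of oxidative defence controlled by NRF2 all rose with high-dose Scutellaria, with a median log2 fold change of 1.10, against 0.01 over all genes. HMOX1, which degrades heme, rose by 4.45 ± 0.05 (SE, adjusted p = 1.5e-52) and SLC7A11, the cystine importer, by 2.34 ± 0.04 (SE, adjusted p = 2.6e-46). With high-dose Coptis 8 rose and 2 fell (4 and 3 by library totals), 8 rose and 0 fell with each ginger, 6 and 0 with Pinellia, 4 and 0 with jujube, and 2 rose and 6 fell with wortmannin, where HMOX1 fell by 0.99 ± 0.07 (SE, adjusted p = 6.7e-18). The share of all genes called was 75.2% with Coptis, 58.8% with Scutellaria, 36.5% with wortmannin, 19.3% with fresh ginger, 17% with dried ginger, 18% with Pinellia and 17.3% with jujube.

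Of 9 tested glucocorticoid receptor targets, 6 rose and 2 fell with wortmannin, where KLF9 rose by 0.64 ± 0.05 (SE, adjusted p = 2.7e-15). With high-dose Coptis 6 rose and 0 fell (6 and 3 by library totals), among them PER1 at 2.21 ± 0.04 and ERRFI1 at 1.37 ± 0.04 (SE, adjusted p = 8.2e-43 and 1.5e-37). The counts were 5 higher and 1 lower with jujube, 5 and 3 with dried ginger, 3 and 2 with fresh ginger, 4 and 4 with Scutellaria, and 2 and 1 with Pinellia. Of 10 heat shock genes, 6 rose and 3 fell with Scutellaria, where HSPA1A and HSPA1B rose by 1.09 ± 0.06 and 1.35 ± 0.06 (SE), while 1 rose and 7 fell with Coptis (0 and 8 by library totals), where HSPA1A fell by 2.9 ± 0.08 (SE, adjusted p = 1.5e-36). HSPA1A and HSPA1B are near-identical copies, so their separate counts are uncertain. With wortmannin 2 heat shock genes rose and 4 fell, and the counts were 0 and 7 with fresh ginger, 0 and 5 with dried ginger, 1 and 1 with Pinellia, and 0 and 1 with jujube. For both lists the shares of all genes called were those given for the NRF2 genes: 36.5% with wortmannin, 75.2% with Coptis, 58.8% with Scutellaria, and 17% to 19.3% with the other high doses.

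Across the 20 group means of log2 CPM, MT1X and MT1E had the closest patterns among the members, with Pearson's r of 0.92, which was also 0.92 over the 17 groups without Coptis. The r of MT2A was 0.24 with MT1X, 0.48 with MT1E and 0.06 with SLC30A1, and 0.49, 0.67 and 0.30 without Coptis. SLC30A1 had r of 0.73 with MT1X, 0.67 with MT1E and 0.21 with MTF1, and 0.62, 0.64 and 0.68 without Coptis. Among 12391 genes with a mean of at least 1 on the log2 CPM scale, those most like MT2A were TFPI (0.93), an inhibitor of coagulation, MGAT4B (0.82), ATP9A (0.82), TRIM13 (0.80) and FAM3C (0.80). Those most like SLC30A1 were FILIP1L (0.92), DAGLA (0.92), APOL2 (0.92), SLC41A2 (0.91) and TIAM2 (0.90). Without Coptis TFPI remained among the 5 genes most like MT2A. None of the 5 most like SLC30A1 stayed among its top 5, though they kept r of 0.83 to 0.87. Wortmannin, at 505 CPM of MT2A against at most 277 CPM in any other group, was in both sets of groups. These correlations share the libraries' scaling and describe the groups of this table.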

How the data were processed

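Expected counts per gene were deposited as one table of 60 libraries. The authors' tools were Trim Galore 0.6.5, FastQC 0.11.9, STAR 2.7.3a and RSEM 1.3.3 with GRCh38, per the submitters' processing notes; their settings and gene annotation were not given in the sources used here. Every column was matched to a library by its code. Symbols came from a gene name table (56558 identifiers) and GENCODE release 29 (497 more). Expected counts were rounded, which changed no library total by more than 0.000224%. Genes were filtered with filterByExpr over the 20 groups (17569 kept), scaled by TMM and tested with edgeR 4.0.16 (R 4.3.3) in one quasi-likelihood fit with 1 mean for each group, leaving 40 residual degrees of freedom. The 42 comparisons were 19 with the vehicle, 18 between doses, 3 between gingers and 2 within code sets, besides the difference of the ginger dose effects. SE is the absolute log2 fold change over the root of F. The common biological coefficient of variation was 3.24%. A floor of 3 counts covers counting error only. Of 60 replicate pairs 0 were identical, and chi-square per gene was 1.61 to 5.53. Tested on simulated counts for high-dose Coptis against vehicle (17013 genes tested), the fit recovered 29, 39, 47 and 49 of 50 genes changed 1.2-, 1.5-, 2- and 4-fold, with 8 false among 172 calls. Only these genes were changed in the simulation, up and down alike, whereas 75.2% of all genes were called in the real comparison. The simulation therefore does not test the scaling of the Coptis libraries. Named genes were the 9 members, the other metallothionein rows by their counts, up to 3 called genes with the smallest p of each list in a comparison, and the 5 genes most correlated with MT2A and with SLC30A1. Alternatives were RLE scaling, DESeq2 1.42.0, no filter, fits on 2 groups, a replicate block, a length trend in exons and each library left out; library totals and a trend in principal transcript length were chosen after seeing the data. The members and lists were chosen with earlier results of these data known. LY294002, thioridazine and ethanol extracts, named in the design text, were not analysed here.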

Additional observations from a re-analysis of the deposited data

How the results depend on the processing

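Of 80 called member results, 80 stayed called with RLE scaling, 80 with the replicate block, 80 with the exon length trend, 79 with no filter, 77 with the principal transcript length trend and 68 by library totals, as did 49 of the 50 that could be refitted on 2 groups alone. DESeq2 kept 78 of the 79 for which it gave an adjusted p. Over 480 values with a library left out, 438 stayed called. Directions turned in the results by library totals alone: MTF1 between high-dose Coptis and vehicle (-0.070), medium- and low-dose Coptis (-0.12) and high-dose Coptis and jujube (-0.060), and MT1E in the last pair (-0.069). Members called with low-dose Coptis against vehicle were 1 instead of 0 (SLC30A1) by DESeq2, library totals, 2 groups alone and both length trends, and with medium-dose Coptis 2 instead of 4 by library totals. With high-dose Coptis, MT2A and MTF1 lost their calls by library totals. Their adjusted p was 0.29 and 0.2 against the vehicle, and 0.42 and 0.76 against the low dose. The difference of the ginger dose effects had 1 instead of 0 (MT1E) with the replicate block (adjusted p = 0.049) and both length trends, and 2 with no filter; leave-outs ran from 0 to 1. With no filter, dried against fresh ginger had 1 at the high and 1 at the low dose, medium-dose jujube 2, low-dose Scutellaria 1, and medium-dose fresh ginger 0 instead of 1, which was also 0 in every leave-out. Medium-dose jujube had 1 in the fit on 2 groups. With the principal transcript length trend, low-dose fresh ginger had 2 instead of 1 and fresh ginger between the high and low dose 1 instead of 0 (leave-outs 0 to 1). Pinellia between these doses had 2 instead of 4 by DESeq2, which lost MT1X and gave no adjusted p for MT1F, and 2 by that trend (leave-outs 2 to 4). Wortmannin ran from 3 to 5 in the leave-outs, with 3 without vehicle replicate 2. The causes were not tested. Replicate numbers did not pair the libraries: same-numbered libraries had a mean correlation of 0.0030, against -0.0015 for other numbers, 26 of 60 libraries had their best correlation with their own number, and 0 of 42 comparisons had every pair over 0.1. Depth limits MT1F, with 4 to 30 counts, and leaves MT1A, MT1M and MT1G untested.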
